A study of Mus musculus with 3 samples.

Results

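Retinoic acid, the active derivative of vitamin A, is the signal that sends spermatogonia into differentiation and then into meiosis. The 10 genes described here cover its path: Stra6 takes up retinol, Aldh1a2 makes retinoic acid, Cyp26b1 degrades it, Rara and Rarg encode its nuclear receptors, Stra8 and Kit respond to it, and Dmrt1, Sohlh1 and Sohlh2 encode transcription factors of the spermatogonium that act on the same step. They were chosen by name, with earlier results of these data known. All 10 were found among 21755 protein-coding genes annotated on the autosomes and chromosome X (GENCODE vM21, mm10). For each gene, the H3K4me3 peaks within 1000 bp of any annotated transcript start, the broad peaks over those starts and the peaks elsewhere in the gene body were collected. Genes with weak peaks were kept.

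H3K4me3, trimethylation of lysine 4 of histone H3, is found at promoters, and during meiosis it is also written by PRDM9 at the sites where recombination is started. It was measured by ChIP-seq with the Abcam ab8580 antibody in whole adult testis of (C57BL/6J x CAST/Eij)F1 males of Prdm9 genotype Humanized/CAST, in which 1 allele carries the human DNA-binding zinc fingers and the other is that of CAST. There were 2 H3K4me3 libraries and 1 input library, all of that single condition, with no mouse of another genotype beside them. The labels assign both H3K4me3 libraries to the testes of 1 male, whereas the study's methods describe littermates. In the case of a single male, differences between the libraries measure technique and not animals. The files held 101978 narrow peaks with 17621116, 19094837 and 1250138 fragments over their centres in H3K4me3 replicate 1, H3K4me3 replicate 2 and input, and these counts are not scaled to depth. A peak was called PRDM9-independent when its centre lay in a region that the authors had found in mice with different Prdm9 alleles, and PRDM9-dependent otherwise.

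Most start peaks of these genes ranked near the middle of all genes, but below the middle of genes with such a peak. Those of Stra6 were weak. A narrow peak lay within 1000 bp of a start in 10 of the 10 genes, where 77.4% of all protein-coding genes had one. A broad peak covered a start in 10 of the 10, where 76.5% of all genes had one. The authors' enrichment over local background, a ratio with 0 for none, was taken at the peak of highest H3K4me3 coverage near a start. Its median was 18.3 over the 10 genes (interquartile range 14.2 to 23.9) and 37.3 over the 16844 genes with such a peak (14.4 to 65.1). Ranked among all 21755 genes, with genes lacking a start peak placed lowest, the 10 genes had a median percentile of 46.1, and of 30.4 among the 16844 genes with a start peak. On the ranking of all genes, Aldh1a2 stood highest at percentile 82.6 and Stra6 lowest at 23.2, while the other 8 genes lay between 38.8 and 52.2. Among the 16844 genes with a start peak, Aldh1a2 was at 77.5, Stra6 at 0.76 and the other 8 genes between 20.9 and 38.2. In whole testis, fewer cells carrying the mark and less of the mark per cell cannot be told apart.

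**Figure D1:**
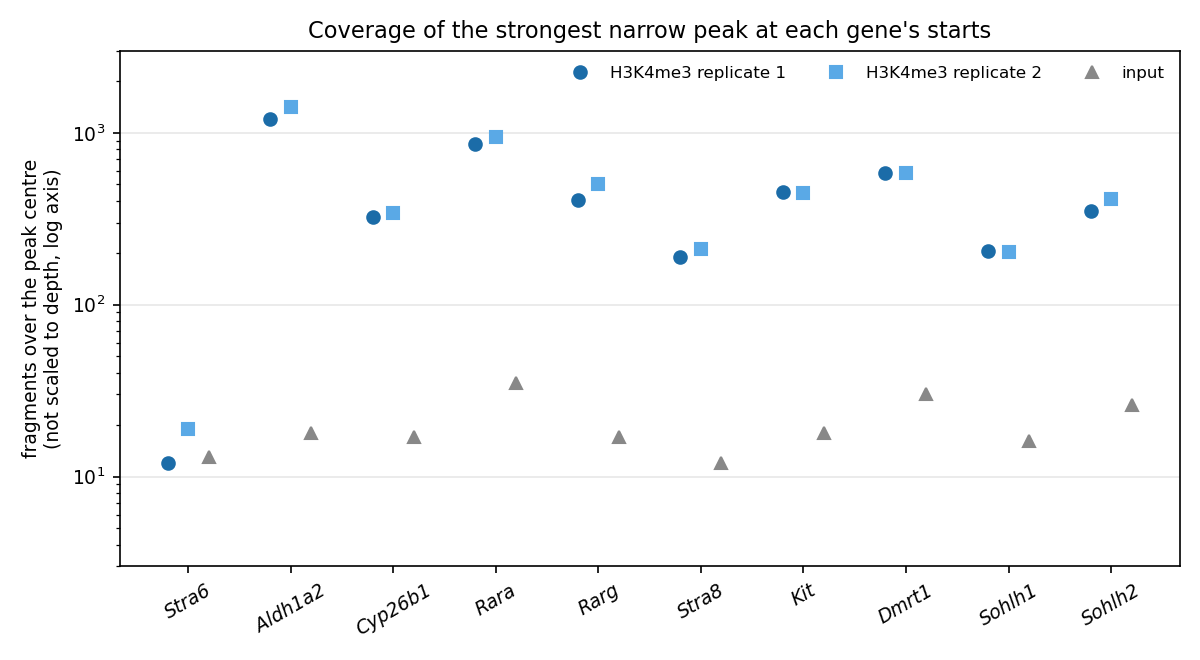
Fragments over the centre of the strongest narrow peak at the starts of each gene, on a log axis, in the 2 H3K4me3 replicates (circles and squares) and the input (triangles), not scaled to depth. In 9 genes both replicates lie well above the input, with at least 190 H3K4me3 fragments, and in Stra6 replicate 1 with 12 fragments lies below the input with 13. The Stra6 peak shown is that at 58129303, which has the same summed H3K4me3 coverage as that at 58135295.

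The width of the mark was spread more evenly around that of other genes. The widest broad peak over a start had a median of 4050 bp in the 10 genes and 3400 bp (interquartile range 2200 to 5300 bp) in all genes with one. Rara with 13300 bp and Cyp26b1 with 9000 bp were at percentiles 97.1 and 91.8 of that distribution. Their enrichments were at percentiles 37.3 and 30.45 among genes with a start peak. For Rara that enrichment comes from a peak in another broad peak, of 9700 bp. Several broad peaks over separate starts were seen in Kit, Rarg and Rara, 3 of the 10 genes (30%), and in 12.8% of all genes. The peak centres lay a median of 147 bp downstream of their nearest start, against 131 bp in all genes. Stra8 had the largest such distance, 735 bp. The nearest peaks to fall outside the limit of 1000 bp were in Rarg, 1169 bp upstream of an internal start, and in Kit, 1465 bp downstream of one.

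**Figure D2:**
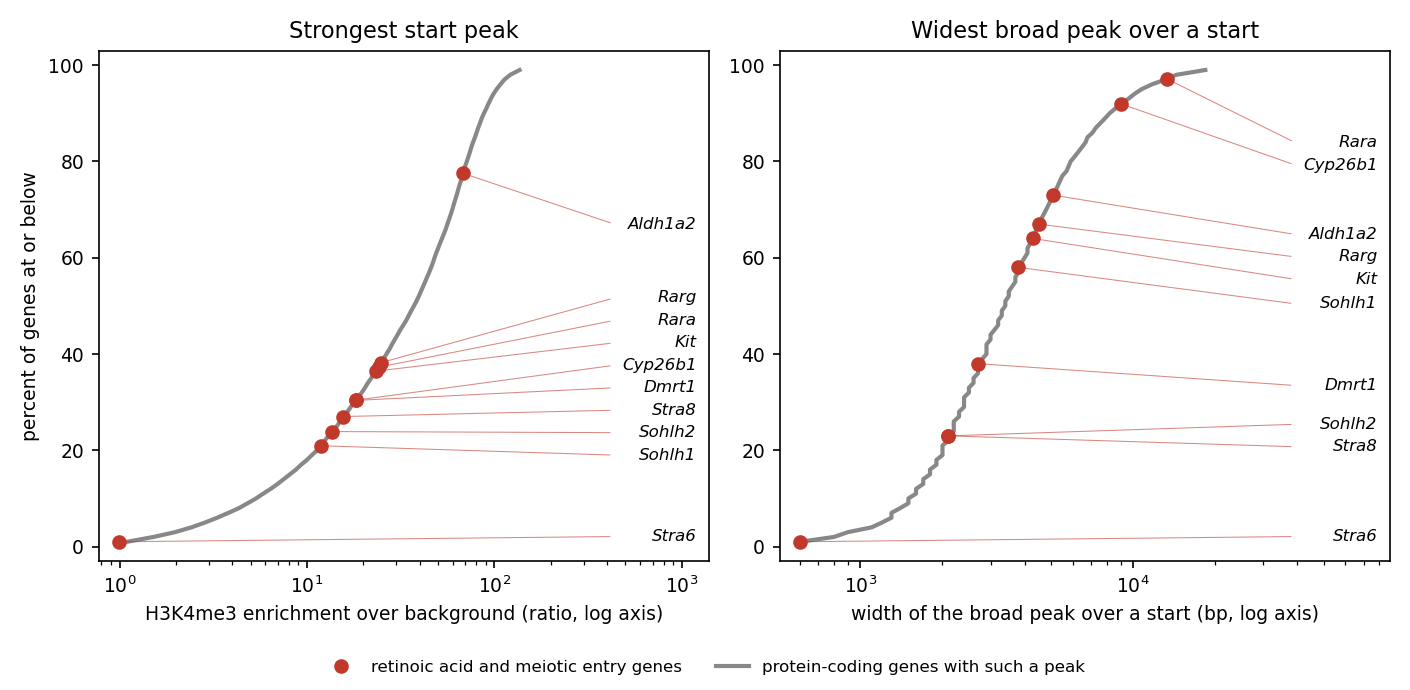
Percent of protein-coding genes (grey curves, 1st to 99th percentile) at or below a given enrichment of the strongest start peak (left, log axis) and a given width of the widest broad peak over a start (right, log axis), among genes that have such a peak, with the 10 genes as red points. Aldh1a2 lies high on the left curve, Rara and Cyp26b1 lie high on the right one, and Stra6 is lowest on both.

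Promoters of 4 genes are shown as examples, and whether their sequence bears on these values was not tested. They are given from the RefSeq transcript start up to 250 bases upstream, without bases that lie in an annotated exon, 5′ to 3′ on the strand of the gene (GRCm38.p6). Capitals mark CACGTG, the E-box bound by basic helix-loop-helix proteins, AGGTCA, the core letters of nuclear receptor sites, and CNCCTCAG, a motif named for STRA8, on either strand. Aldh1a2 is at chr9:71215539-71215788, Sohlh1 at chr2:25847249-25847498 (minus strand), Cyp26b1 at chr6:84593909-84594060 (minus strand) and Stra6 at chr9:58128838-58129087.
Aldh1a2: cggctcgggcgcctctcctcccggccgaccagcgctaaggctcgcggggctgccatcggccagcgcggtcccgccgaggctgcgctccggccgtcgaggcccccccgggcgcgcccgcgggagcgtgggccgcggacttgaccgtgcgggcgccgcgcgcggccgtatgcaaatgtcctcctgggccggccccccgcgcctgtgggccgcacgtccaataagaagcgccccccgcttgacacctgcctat
Sohlh1: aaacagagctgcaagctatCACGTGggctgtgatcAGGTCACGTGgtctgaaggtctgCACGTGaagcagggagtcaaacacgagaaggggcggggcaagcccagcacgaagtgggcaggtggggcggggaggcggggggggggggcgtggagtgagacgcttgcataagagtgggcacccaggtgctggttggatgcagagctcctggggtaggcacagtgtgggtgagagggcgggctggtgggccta
Cyp26b1: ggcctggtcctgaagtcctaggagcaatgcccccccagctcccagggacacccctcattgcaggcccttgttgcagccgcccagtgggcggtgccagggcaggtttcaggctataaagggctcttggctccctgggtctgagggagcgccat
Stra6: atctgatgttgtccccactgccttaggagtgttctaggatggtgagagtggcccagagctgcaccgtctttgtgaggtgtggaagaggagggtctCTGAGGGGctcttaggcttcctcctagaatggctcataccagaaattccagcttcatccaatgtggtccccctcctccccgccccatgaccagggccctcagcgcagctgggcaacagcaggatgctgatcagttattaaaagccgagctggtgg
The Aldh1a2 window of 250 bases held 40 CpG dinucleotides, more than 98.7% of 32619 RefSeq promoter windows of the same length. Sohlh1 held 11, Cyp26b1 held 7 and Stra6 held 4 in the same length of window, at percentiles 64.2, 53.4 and 37.4. Windows whose start lay in a broad peak had a median of 12 CpG, and those outside had 2. Of the 4 starts shown, those of Aldh1a2, Sohlh1 and Stra6 lay in a broad peak, and that of Cyp26b1 lay 3310 bp from the nearest one. Sohlh1 held 3 CACGTG matches, 1 of which overlaps an AGGTCA match, and 0.0613% of all windows held 3 or more CACGTG matches. A match is a description of the letters and says nothing of binding.

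Stra6, the membrane receptor through which cells take up retinol from its plasma carrier, had the weakest promoter peaks of the 10 genes. Its peak at position 58129303 of chromosome 9, in intron 1 and 46 bp upstream of a start, had 12 and 19 fragments in the H3K4me3 replicates and 13 in the input, with an enrichment of 0.989. Another peak at 58135295, in intron 2 and 485 bp past a start, had 13 and 18 fragments in the H3K4me3 replicates and 6 in the input, with an enrichment of 2.30. Their summed H3K4me3 coverage is the same, 31 fragments, so either could stand for the gene. The ranks above use the peak at 58129303. With that at 58135295, Stra6 would be at percentile 25.5 of all genes, and between percentiles 3 and 4 among genes with a start peak. Both peaks were PRDM9-dependent, and their broad peaks of 600 and 1000 bp overlapped no PRDM9-independent region. None of the 12 annotated starts of Stra6 lay in such a region, and 3 of the 12 lay in a broad peak. In the other 9 genes the strongest start peak was PRDM9-independent, as it was in 92.0% of all genes with a start peak.

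The annotated body of Stra6 reaches far upstream of its main transcript and overlaps Ccdc33 on the opposite strand. The strongest peak within it, at 58101987 with 173 and 214 fragments in the H3K4me3 replicates, 12 in the input and an enrichment of 15.1, lies in a broad peak of 4900 bp that holds a start of Ccdc33. Peaks at 58109422 (enrichment 2.63, PRDM9-dependent) and 58113565 (6.55) also lie within both genes. A peak at 58121558, which overlaps no other annotated gene, had 12 and 20 fragments in the H3K4me3 replicates and 2 in the input, with an enrichment of 7.40. Marks on opposite strands cannot be told apart by ChIP-seq, so the 3 peaks within both genes cannot be given to Stra6 rather than Ccdc33.

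Aldh1a2, the retinaldehyde dehydrogenase that makes retinoic acid, had the strongest promoter mark. Its single start on chromosome 9 lay under a broad peak of 5100 bp, with a narrow peak at 71216017 in intron 1, 228 bp past the start. That peak had 1206 and 1403 fragments in the H3K4me3 replicates and 18 in the input, an enrichment of 68.1. Both replicates were the highest among the start peaks of the 10 genes, above the 862 and 942 fragments of Rara, the next. Elsewhere in the gene, a PRDM9-dependent peak in intron 5 at 71262721 had 14 and 12 fragments in the H3K4me3 replicates and 4 in the input (enrichment 2.93).

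Cyp26b1, the cytochrome P450 that oxidises retinoic acid and is known in the fetal testis for keeping germ cells out of meiosis, was marked inside the gene rather than at its first exon. The 2 starts farthest upstream lay 3246 and 3408 bp outside any broad peak and in no PRDM9-independent region. The other 3 starts, between 5270 and 6228 bp downstream of the first, lay in the broad peak of 9000 bp. Its strongest narrow peak, at 84587907 of chromosome 6 in coding exon 2, had 324 and 341 fragments in the H3K4me3 replicates and 17 in the input, with an enrichment of 18.3. It lay 98 bp past an internal start. Further into the same broad peak, 84585627 in intron 2 had an enrichment of 7.24 and 84583750 in intron 3 had 6.69.

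Rara, the retinoic acid receptor alpha gene, carried the most peaks. All 7 of its starts lay in broad peaks that overlapped PRDM9-independent regions, in 3 separate blocks of 1400, 9700 and 13300 bp on chromosome 11. The first start had a peak at 98927919 with 113 and 145 fragments in the H3K4me3 replicates and 18 in the input (enrichment 6.62). The block that begins upstream of the next starts, 9880 and 9900 bp into the gene, had a peak at 98937844 with 862 and 942 fragments in the H3K4me3 replicates and 35 in the input (24.1). The widest block held 1 start, 32594 bp into the gene, with a peak at 98960665 of 460 and 524 fragments in the H3K4me3 replicates and 25 in the input (18.4). The peak at the first start was thus the weakest of the 3, by enrichment and in both replicates.

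The wide blocks of Rara held further peaks within introns, some with enrichments as high as those at its starts. In intron 1, 2733 bp past the nearest start, 98942445 had 450 and 495 fragments in the H3K4me3 replicates and 15 in the input, and its enrichment of 29.5 was the highest in the gene. In the block of 13300 bp, the peaks at 98963498, 98967034 and 98968249 had enrichments of 19.0, 6.74 and 16.3. An intron 1 peak at 98949303 had 2.43. The PRDM9-dependent peaks at 98955061 and 98973395 had low enrichments of 1.20 and 0.766, with 13 and 4 fragments in the H3K4me3 replicates and 6 in the input at the first, and 12 and 9 against 11 in the input at the other.

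Rarg, the gamma receptor gene, which is expressed in spermatogonia, had its mark divided between a pair of blocks of nearly equal strength. At the first exon, 102257282 of chromosome 15 had 405 and 501 fragments in the H3K4me3 replicates and 17 in the input, with an enrichment of 25.0 and a broad peak of 1900 bp. In intron 3, 102247669 had 422 and 473 fragments in the H3K4me3 replicates and 19 in the input, with an enrichment of 22.0 and a broad peak of 4500 bp that covered 2 internal starts. Receptor genes of this family are known to produce isoforms from alternative promoters. In untranslated exon 10, the PRDM9-dependent peak at 102235779 had 24 and 20 fragments in the H3K4me3 replicates and 9 in the input (enrichment 2.17).

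**Figure D3:**
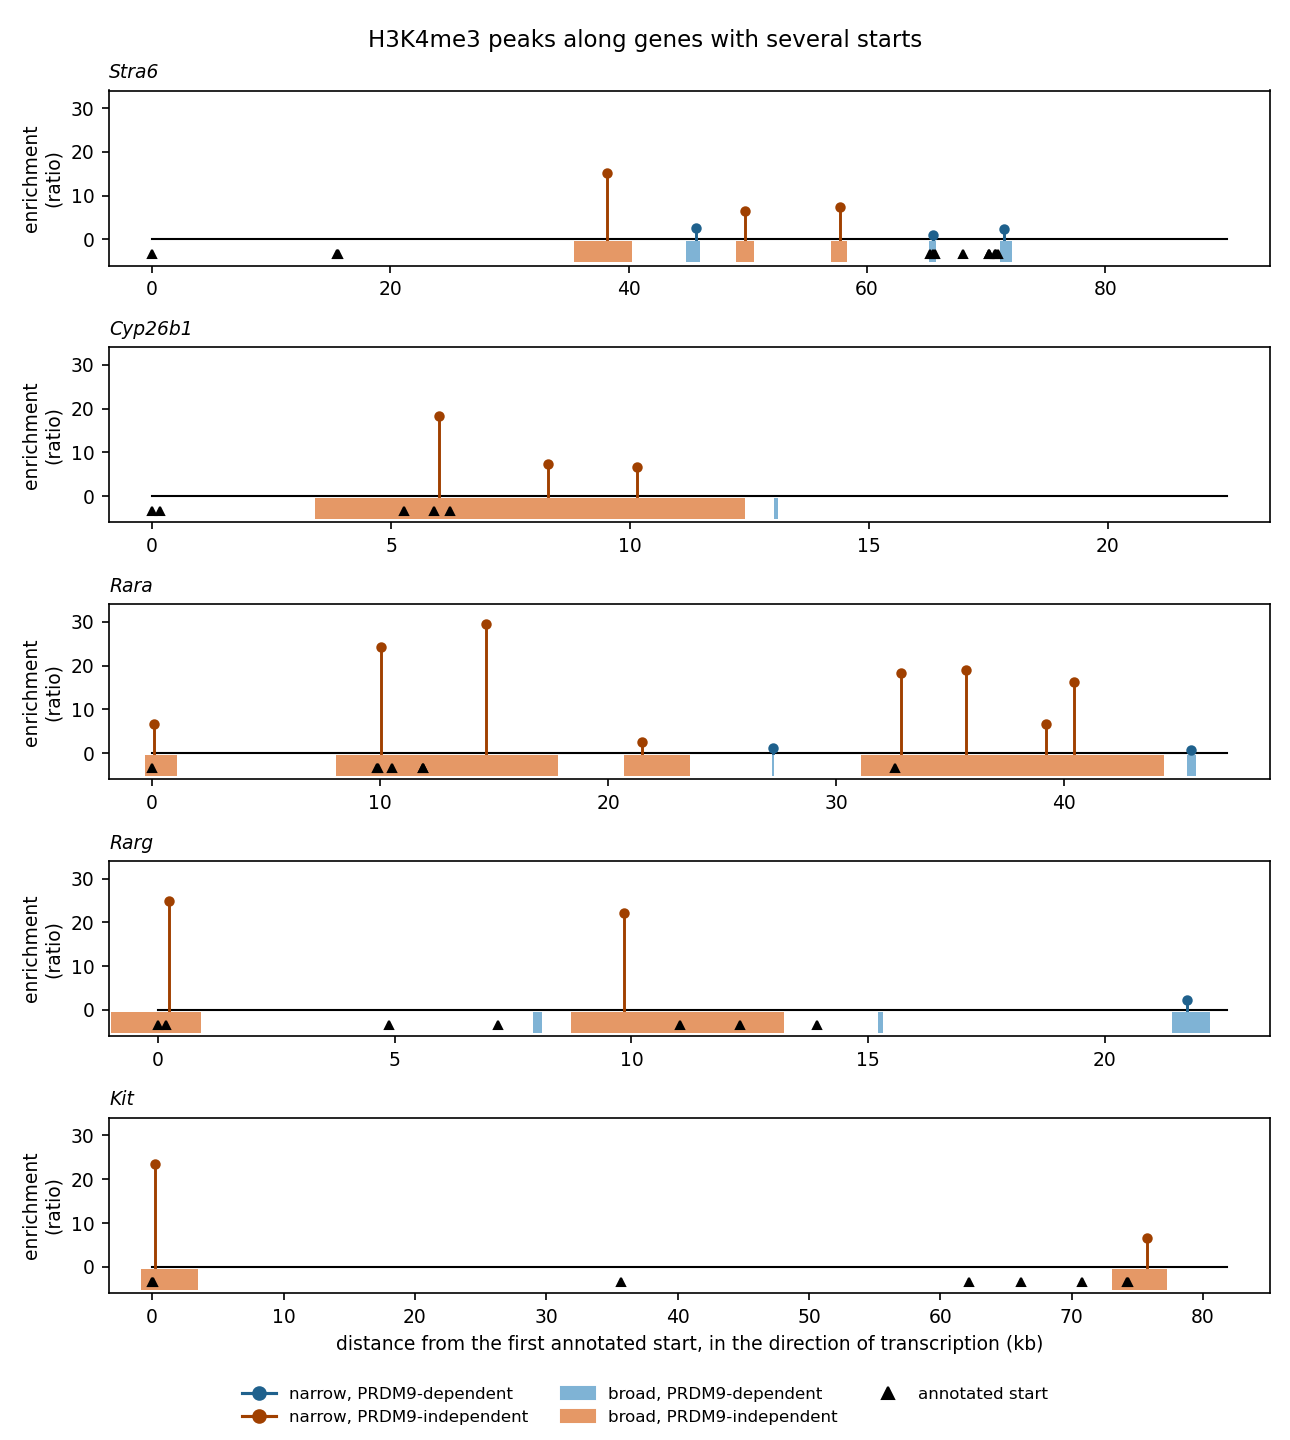
Narrow peaks (stems, height is the enrichment ratio), broad peaks (bars) and annotated starts (triangles) along 5 genes with several starts, by distance in kb from the first start in the direction of transcription, coloured by PRDM9 class. The first starts of Cyp26b1 lie outside its block of 9000 bp, Rara carries 3 PRDM9-independent blocks with starts, Rarg and Kit carry 2 each, and the starts of Stra6 have low PRDM9-dependent peaks.

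Stra8, the gene named for its stimulation by retinoic acid and needed for meiotic initiation, had a modest mark. Its peak at 34921745 of chromosome 6, in intron 2, had 190 and 212 fragments in the H3K4me3 replicates and 12 in the input, with an enrichment of 15.6 and a deposited p of 6.12e-244. It stood at percentile 43.5 of all genes. The broad peak of 2100 bp covered 3 of the 4 starts, and the earliest start lay 438 bp outside it. No further peak lay in the gene.

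The Stra8 window upstream of the RefSeq start held 2 AGGTCA matches, both on the strand of the gene, and they are shown because this gene is the classical target of the pathway. They begin 194 and 38 bases upstream of the start, at chr6:34920744-34920769 and chr6:34920900-34920925, within an untranslated exon of another annotated transcript. Capitals mark the AGGTCA match.
Stra8 far site: tggggtgaaaAGGTCAtcttgctcct
Stra8 near site: ctggggtaccAGGTCAgttttttacc
AGGTCA was found in 3 of the 17 windows of the 9 genes listed by RefSeq (Dmrt1 had no window), and in 14.1% of all 32619 windows, and 2 or more matches were found in 1.37% of all windows. Direct repeats AGGTCANAGGTCA, AGGTCANNAGGTCA and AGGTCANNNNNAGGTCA were found in 0 of the 17 windows and in 0.0337%, 0.0092% and 0.0092% of all windows. CNCCTCAG was found in 2 of the 17 and 6.45%, and CACGTG in 2 of the 17 and 6.06%. These shares leave out looser forms of the motifs and sites outside the windows.

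Kit, the receptor tyrosine kinase that appears as spermatogonia differentiate, was marked near both ends. At its first starts the peak at 75575141 of chromosome 5, in intron 1, had 451 and 448 fragments in the H3K4me3 replicates and 18 in the input, an enrichment of 23.4 in a broad peak of 4300 bp. A broad peak of 4200 bp lay near the far end of the gene, over 2 starts of retained-intron transcripts in intron 16, 74178 and 74277 bp past the first start. The narrow peak inside it, at 75650658 in intron 17, had 29 and 56 fragments in the H3K4me3 replicates and 6 in the input, with an enrichment of 6.54. A truncated KIT protein is known to be made in mouse spermatids from a promoter within an intron of this gene. The other 4 retained-intron starts of Kit lay between 2304 and 32174 bp from the nearest broad peak.

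Dmrt1, a transcription factor that restrains the mitosis to meiosis switch in spermatogonia, had a peak at 25506090 of chromosome 19 in coding exon 1, with 585 and 586 fragments in the H3K4me3 replicates and 30 in the input. Its enrichment was 18.2, the broad peak of 2700 bp covered all 3 starts, and its percentile was 46.1. Inside the gene, a PRDM9-independent peak in intron 2 at 25526808 had an enrichment of 4.34. The PRDM9-dependent peaks in intron 4, at 25584110 and 25601013, had enrichments of 1.38 and 1.16. The start of Dmrt3 lay in a broad peak of 10100 bp that begins past the annotated end of Dmrt1.

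Sohlh1 and Sohlh2, basic helix-loop-helix factors needed for spermatogonial differentiation, had the lowest enrichments of the 9 genes with a PRDM9-independent start peak. Sohlh1 had 204 and 203 fragments in the H3K4me3 replicates and 16 in the input at 25847171 of chromosome 2, in coding exon 1, with an enrichment of 11.8 and a broad peak of 3800 bp. Sohlh2 had 350 and 413 fragments in the H3K4me3 replicates and 26 in the input at 55182196 of chromosome 3, in intron 1, with an enrichment of 13.7 and a broad peak of 2100 bp. Their percentiles were 38.8 and 41.0. A PRDM9-dependent peak in intron 9 of Sohlh2, at 55205983, had 10 and 21 fragments in the H3K4me3 replicates and 8 in the input (enrichment 1.69).

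PRDM9-dependent peaks inside the 10 genes had low enrichments. They were 8 of the 21 gene-body peaks, where they were 27891 of 38585 over all protein-coding genes. At least 1 was present in 6 of the 10 genes (60%), where 42.7% of all genes had at least 1. Without Stra6, whose PRDM9-dependent gene-body peak lies within Ccdc33 as well, there were 7 in 5 of 9 genes. Per 100 kb of gene body the 10 genes had 1.62 and all protein-coding genes 2.60. Their enrichments ran between 0.766 and 2.93 with a median of 1.54, against a median of 2.79 over all 62533 PRDM9-dependent narrow peaks. The 13 PRDM9-independent gene-body peaks had a median of 7.24. The short human PRDM9 motif CCNCCNTNNCCNC was found within 300 bases around 1 of the 10 PRDM9-dependent peaks at starts or in bodies, that at 98973395 in Rara. It was found around 5.90% of all PRDM9-dependent and 7.01% of all PRDM9-independent narrow peaks. No motif of the CAST allele was searched, so a peak without a match can still hold a site of that allele. The paper reports that hotspots of the CAST allele dominate over those of the humanized allele.

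No peak of these genes was called different between the replicates. By a two-sided exact binomial test of the replicate 1 share, adjusted by the Benjamini-Hochberg method over all narrow peaks, 0 of the 34 narrow peaks of these genes differed from the overall share of 48.0%, where 0.804% of all narrow peaks did. Without adjustment, 4 of the 34 (11.8%) had an exact binomial p under 0.05, where 9.08% of all narrow peaks did, so that their share was near the background. They were the intron 17 peak of Kit (34.1% of fragments from replicate 1, exact binomial p = 0.0121), the intron 2 peak of Rara at 98955061 (76.5%, exact binomial p = 0.0264), the intron 3 peak of Cyp26b1 (41.4%, exact binomial p = 0.0351) and the start peak of Rarg (44.7%, exact binomial p = 0.0498). The exact 95% interval held 48.0% at 31 of the 34 peaks and at all 13 start peaks. These intervals cover counting error only, and the p-values compare these 2 libraries. The Rara intron 2 peak, with 17 fragments in all, had an interval of 50.1% to 93.2%, whereas that of the Aldh1a2 start peak ran from 44.3% to 48.2%.

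**Figure D4:**
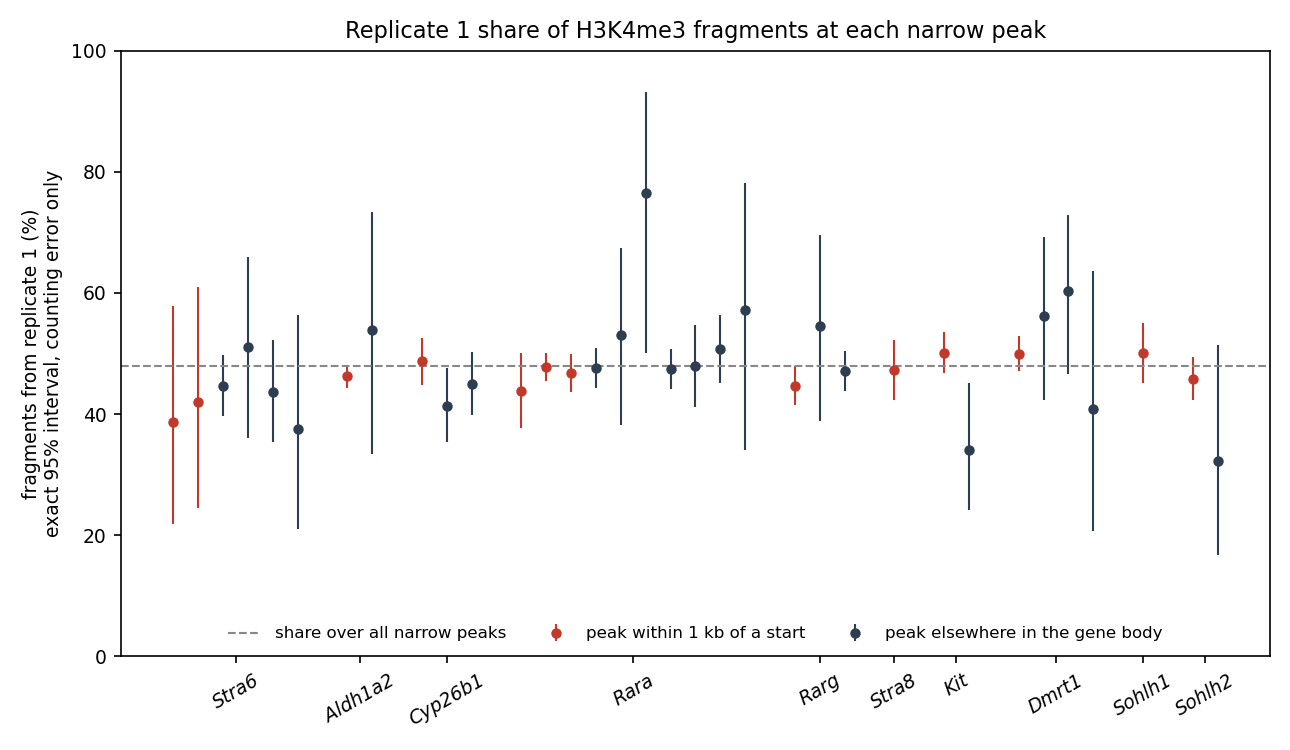
Percent of H3K4me3 fragments that came from replicate 1 at each of the 34 narrow peaks, with exact 95% binomial intervals, for peaks at starts (red) and elsewhere in the gene (dark), and the share over all narrow peaks as a dashed line. Peaks with many fragments cluster near 48.0%, and the widest intervals belong to peaks with few.

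Other genes of the retinoic acid pathway, taken by function, had median percentiles between 43.0 and 63.2. Among genes for retinoid supply and retinoic acid synthesis, 8 of 11 had a start peak, with a median percentile of 45.4. Rdh10, which oxidises retinol, had the highest enrichment at 73.9, followed by Rdh11, another retinol dehydrogenase, at 67.5. Bco1, Aldh8a1 and Ttr had no narrow peak within 1000 bp of a start, although Bco1 and Aldh8a1 had a broad peak over one. All 5 genes for degradation and carriage had a narrow start peak, with a median percentile of 43.0. The binding protein gene Crabp1 (22.5) and the oxidase gene Cyp26a1 (16.5) led them. The strongest start peak was PRDM9-independent in 4 of the 5, and that of the other gene had an enrichment of 1.44. A broad peak covered a start in 4 of the 5. All 10 receptor and cofactor genes had a narrow start peak, with a median percentile of 63.2, led by the coactivator genes Ncoa1 (73.4) and Ncoa3 (65.8).

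Genes of spermatogonial differentiation and meiotic entry other than the 10 had a start peak in 16 of 16 matched cases, with a median percentile of 47.0. The strongest start peak was PRDM9-independent in 15 of the 16, and that of the other gene had an enrichment of 2.60. Sycp3, of the synaptonemal complex, reached 113.4 and Meioc, a regulator of meiotic transcripts, 79.9. Of 15 stem cell genes 11 had one, with a median percentile of 39.8, led by Foxo1 (108.7) and Etv5 (60.9), while Pou3f1, Egr4, Nanos2 and Nanos3 had no narrow start peak. Pou3f1 and Egr4 had a broad peak over a start, of 4100 and 3500 bp. Markers of cell types were ranked in the same way. Germ cell markers had a median percentile of 81.9 with a peak in 6 of 7. Sertoli markers had 40.5 with 5 of 6, and Leydig markers 37.0 with 4 of 5. The germ cell markers were split, with Sycp1, Ddx4, Dazl and Sycp3 between 81.9 and 97.7, Tnp1 at 35.9 and Prm1 at 42.2. Broad peaks of 22800 and 23900 bp covered the starts of Tnp1 and Prm1, so the rank of a start peak leaves out much of their mark. Markers of myoid cells, endothelium and macrophages, 9 genes in all, had median percentiles between 26.4 and 29.1, and 8 markers of other organs 12.0. Of the markers, Acrv1 of germ cells, Amh of Sertoli cells, Hsd3b1 of Leydig cells, Myh11 of myoid cells and Alb, Ins2, Myh6 and Krt5 of other organs had no narrow peak within 1000 bp of a start, although broad peaks of 7600 and 4500 bp covered a start of Acrv1 and Myh11. The part of any cell type in the marks of the 10 genes was not tested.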

How the data were processed

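H3K4me3 ChIP-seq was analysed in 2 ChIP libraries and 1 input from the authors' peak files for mm10. Reads were aligned by the authors (BWA, then Stampy), who dropped duplicates and improper pairs, derived the coverage by fragments (SAMtools, bedtools) and called 1 peak set for the pair of replicates against input by a likelihood ratio. The deposited counts are fragments of each library over the centre of a narrow peak, unscaled. The deposited enrichment is the authors' ratio over local background from both replicates, and the deposited p-value is from their test against no enrichment (threshold 1e-06). Broad peaks (merged bins of 100 bp) and PRDM9-independent regions were deposited as positions.

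Starts came from GENCODE vM21. Counts were summarised over protein-coding genes, and the replicate share was tested by an exact binomial test with a threshold of 0.05 and 95% Clopper-Pearson intervals, which was tested on simulated data. Peaks were called jointly, so no test between ChIP and input was made here. RefSeq promoter windows were searched for motifs. Of 18 names listed for spermatogonial differentiation and meiotic entry, Bhmg1 and Meiosin, other names of Gm4969, were not matched. Gm4969 was matched, with an enrichment of 15.4 at its start peak, so the gene is counted. The genes named are the 10 members with all their peaks, of each other pathway list the genes without a start peak and the 2 of highest enrichment, and genes with a start in a member's broad peak. Of the cell type markers, those without a start peak and the germ cell markers are named. Of the retinoid supply list, 1 gene is not reported here and was left out of its counts. The members and lists were chosen with earlier results of these data known. The versions were scipy 1.17.1, pandas 2.3.3, numpy 2.4.6, matplotlib 3.10.9 and Python 3.11.15.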

Additional observations from a re-analysis of the deposited data

How the results depend on the processing

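The counts of genes with a narrow or broad peak at a start were 10 of 10 under each alternative tried, except that a limit of 500 bp left 9, without Stra8. The median percentile of 46.1 was 50.6 when genes were ranked by summed ChIP coverage and 48.1 by the log2 ratio to input with 5 added. It ran between 46.2 and 47.5 when 1 replicate was left out, and was 30.4 when only genes with a start peak were ranked. Over the same alternatives Rara ran between 37.3 and 66.1 and Aldh1a2 between 76.7 and 84.0. The 37.3 of Rara comes from ranking only genes with a start peak, which leaves the order of genes as it is. By summed ChIP coverage Rara moved from 51.5 to 66.1, while Rarg was at 52.2 and 52.1. The order of the middle genes thus depends on the measure. The 8 PRDM9-dependent gene-body peaks were 5 at a deposited p under 1e-10, and between 6 and 8 when only 1 replicate had to exceed the input. The latter compares fragment counts not scaled to depth and is not a test of enrichment. The replicate test called 0 of the 34 peaks with the expected share taken over either PRDM9 class. No paired analysis was possible because there is a single condition. Depth limits the weak peaks: at the PRDM9-dependent peaks, those at the Stra6 starts included, no replicate exceeded 35 fragments, and 1 input library gives no measure of background spread.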
